A study of Mus musculus with 2 samples.

Results

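The genes described here are 10 that cells use against metals and oxidants: the metallothioneins Mt1 and Mt2, and Hmox1, Nqo1, Gclm, Gclc, Txnrd1, Srxn1, Slc7a11 and Prdx1, which the transcription factor NRF2 is known to control. They were chosen by name for a question on oxidative stress under light treatment, by a rule that uses no measured value. Earlier results of these data were known when they were chosen, so the choice was not blind to the data. All 10 stand among the 22483 gene symbols that both feature lists hold. Their UMIs (unique molecular identifiers, each standing for 1 captured RNA molecule) were summed over cell classes in each library.

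The study sequenced single immune cells, sorted for CD45, of subcutaneous MC38 tumours (a colon carcinoma line of the mouse) in C57BL/6 hosts labelled wild type, although the labels give the cell type as tumour cells. The PBM group received pulsed photobiomodulation, a light treatment, once a day from day 7, and its tumours were taken on day 14. The control group carried the same tumours to day 14, and the labels name no treatment for it. Each group is 1 library of cells pooled within the condition; the number of animals in a pool, the wavelength and the light dose are not given in the sources used here. Treatment, pool of animals and library therefore cannot be told apart, no test between groups was possible, and every interval below is a 95% interval for counting error only.

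The PBM library held 13962 barcodes and 86159897 UMIs (median 5143.5 per barcode) and the control library 11238 barcodes and 104673228 UMIs (median 5621.5). After filters and doublet removal, 13062 PBM cells and 11099 control cells remained. The libraries differed in makeup before any gene was compared. The PBM library held 6690 T-like, 5609 B-like, 203 NK-like, 32 macrophage-like, 78 monocyte-like and 7 Sparc-led cells, against 2244 T-like, 207 B-like, 1327 NK-like, 4212 macrophage-like, 882 monocyte-like and 1212 Sparc-led cells in the control library. The leading genes of the Sparc-led cells include fibroblast genes such as Col1a2 and Dcn, but also Ankrd1, Tm4sf1, Sox9 and Tnnt2. With finer clustering (resolution 2.0) one cluster of this class was led by Tnnt2 and Ankrd1 (7 PBM and 801 control cells). Another was led by Dcn and Col3a1 (412 control cells). What kind of cell most of them are is not settled, and a CD45 sort should remove non-immune cells. T-like cells lay mostly in other clusters in PBM than in control. Most PBM T-like cells were in clusters led by Cd8b1 and Dapl1 (3162 cells) and by Cd40lg and Lef1 (2594 cells), and most control T-like cells in one led by Ifng and Pdcd1 (1107 cells) and one led by Foxp3 and Klrg1 (570 cells). Most B-like cells of both libraries shared a cluster led by Iglc1 and Ms4a1 (4487 PBM and 179 control cells), while one led by Oasl1 and Ifit3 held 532 PBM and 2 control cells. At resolution 2.0, however, B-like cells also lay mostly apart. A cluster led by Iglc1 and Igkc held 176 PBM and 149 control cells. Clusters led by Fcmr and Cd79a (2123 PBM and 17 control cells) and by Vpreb3 and Ccr6 (1862 PBM and 12 control cells) held few control cells. The median mitochondrial share of UMIs was 0.0167% in PBM and 0.143% in control. The libraries share 1991 barcode names, but these names are serial cell numbers and not nucleotide sequences.

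Metallothioneins are small cysteine-rich proteins that bind zinc and copper and can also take up reactive oxygen species. Their genes are switched on by zinc through the factor MTF1, which binds metal response elements in their promoters, and also by glucocorticoids and low oxygen. NRF2, encoded by Nfe2l2, is held down by KEAP1 until oxidants or electrophiles modify KEAP1, after which it binds antioxidant response elements together with small MAF proteins and raises genes of glutathione synthesis, thioredoxin, haem breakdown and quinone reduction. BACH1 and BACH2 bind the same elements and repress them. In tumours, macrophages that take up red cells and iron are known for high Hmox1.

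Mt1 and Mt2 had the log2 ratios farthest from 0 of the members tested in each of the 4 classes compared. Over all cells Mt1 stood at 7.48 CPM (UMIs of the gene scaled to 1000000 UMIs of the population) in the PBM library (580 UMIs), against 1237 CPM in the control library (126686 UMIs), and Mt2 at 1.04 CPM (81 UMIs) in PBM, against 354 CPM (36291 UMIs) in control. Few classes carried these whole-library levels: in the control library, macrophage-like cells were 37.9% of cells and gave 49.6% of Mt1 UMIs, and Sparc-led cells were 10.9% of cells and gave 43.0%. In the PBM library, T-like cells gave 33.3% of the Mt1 UMIs and the 7 Sparc-led cells 14.0%. The comparison is therefore made within cell classes in what follows.

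Both genes lie side by side on mouse chromosome 8 (GRCm38), Mt2 at chr8:94172664-94173568 and Mt1 at chr8:94179082-94180327, both on the plus strand and 5513 bases apart. The 250 bases before the RefSeq start of each are shown because both genes were called lower in PBM in all 10 populations compared below before free RNA was subtracted, and Gclm, the modifier subunit of the glutathione synthesis enzyme, is shown beside them because it has both kinds of element and stayed under 2-fold in T-like cells. Sequences are from RefSeq (GRCm38), 5′ to 3′ on the gene's own strand, which is the plus strand in all 3. Capitals mark matches on either strand to the metal response element core (TGCACNC or TGCGCNC) or the antioxidant response element core (TGACNNNGC).
Mt2, chr8:94172368-94172617: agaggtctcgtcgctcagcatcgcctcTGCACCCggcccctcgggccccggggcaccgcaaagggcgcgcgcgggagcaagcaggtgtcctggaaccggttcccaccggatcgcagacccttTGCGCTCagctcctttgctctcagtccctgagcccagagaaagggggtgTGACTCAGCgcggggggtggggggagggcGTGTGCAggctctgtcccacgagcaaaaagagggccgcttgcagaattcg
Mt1, chr8:94178839-94179088: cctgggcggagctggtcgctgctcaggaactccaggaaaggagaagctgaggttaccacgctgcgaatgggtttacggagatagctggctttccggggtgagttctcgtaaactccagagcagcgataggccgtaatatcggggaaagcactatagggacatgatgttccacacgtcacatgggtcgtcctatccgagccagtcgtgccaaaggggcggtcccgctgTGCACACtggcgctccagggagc
Gclm, chr3:122245307-122245556: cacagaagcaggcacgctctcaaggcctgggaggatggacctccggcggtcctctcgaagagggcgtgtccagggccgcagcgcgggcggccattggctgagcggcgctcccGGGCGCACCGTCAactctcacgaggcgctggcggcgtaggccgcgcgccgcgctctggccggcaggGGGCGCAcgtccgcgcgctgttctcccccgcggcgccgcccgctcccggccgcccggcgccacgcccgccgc
In the shown stretch Mt2 has 3 metal response cores, beginning 223, 128 and 50 bases before the start, and 1 antioxidant core 79 bases before it. Mt1 has 1 metal response core 23 bases before the start and 2 more in the 50 bases after it, which are not shown. Cores farther downstream were not searched for. The RefSeq starts used differ from the gene spans given above. The shown Mt1 stretch runs past the span's first base (94179082), and the Mt2 stretch ends before its own (94172664). Gclm has 2 metal response cores, 138 and 72 bases before the start, and 1 antioxidant core 134 bases before it that overlaps the first of them. Of 32851 promoter windows of 300 bases, 25.7% hold at least 1 metal response core, 1.31% at least 3 and 12.4% at least 1 antioxidant core. With the 50 bases after the start included, Mt2 has 4 metal response cores and Mt1 and Gclm 3 each. A match only describes the letters and shows no binding.

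In T-like cells Mt1 stood at 4.22 CPM in PBM (193 UMIs), against 304 CPM in control (4169 UMIs), 72.0-fold lower, a log2 ratio of -6.17 (interval -6.39 to -5.96). Mt2 stood at 0.613 CPM in PBM (28 UMIs), against 78.5 CPM in control (1077 UMIs), 128-fold lower. After every cell was thinned to 1000 UMIs, 0.179% of PBM T-like cells had an Mt1 UMI (1.08% unthinned), against 18.0% of control T-like cells (53.0% unthinned). Median depths were 5895 UMIs in PBM T-like and 4274.5 in control T-like cells. In control B-like cells (median 2674 UMIs), whose Mt1 level is read as background below, the share was 10.1% thinned and 24.6% unthinned. The PBM and control cells mostly fell into different sub-clusters: over the 10 T-like sub-clusters with at least 50 PBM cells, Mt1 lay between 0.434 and 5.63 CPM, and over the 4 with at least 50 control cells between 149 and 453 CPM. The lowest control level is read as background below. How many of all genes have ranges apart in this way was not counted, so no result about Mt1 is read from these ranges.

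The T-like subsets differed within the control library. Mt1 was highest in the regulatory-like sub-cluster (Foxp3, Il2ra and Il10 among its genes) at 453 CPM, followed by cycling cells at 338 CPM (interval 309 to 368) and effector or exhausted CD8-like cells at 316 CPM (interval 301 to 331), whose intervals overlap. Conventional CD4-like cells were lowest at 149 CPM. In the PBM library the naive-like sub-cluster stood at 1.61 CPM, memory-like CD8 cells at 0.434 CPM (2 UMIs in 522 cells) and regulatory-like cells at 5.07 CPM. Most of the few Mt1 UMIs of PBM T-like cells came from a handful of cells of the control-dominated regulatory-like sub-cluster: 8 PBM cells fell into it, 3 of them held an Mt1 UMI, and those 3 held 111 of the 193 UMIs, 57 of them in 1 cell. Those 8 cells stood at 1469 CPM of Mt1, above the 453 CPM of the 575 control cells there.

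Free RNA, released by broken cells and captured in every droplet, gives UMIs of a gene in cells that do not express it. From markers of other classes its share was put at 17.3% of the library-wide level in PBM T-like cells and 12.4% in control T-like cells. These shares are medians over 20 and 31 markers, and single markers ran from 8.37% to 24.6% in PBM and from 7.41% to 63.4% in control. At its median free RNA could supply 50.3% of Mt1 and 55.8% of Mt2 in control T-like cells, and with it subtracted the log2 ratios were -5.57 for Mt1 and -6.21 for Mt2. The control marker with the lowest share would put the free Mt1 of control T-like cells at 91.7 CPM and the one with the highest at 784 CPM, above the 304 CPM measured, so the subtracted ratios rest on the median. By sub-cluster it could supply 36.9% of control Mt1 in regulatory-like, 33.6% in cycling and 43.2% in effector or exhausted CD8-like cells, but 94.6% in conventional CD4-like cells, whose level is read as background. The 12 macrophage markers, all with a UMI in both libraries, summed to 27.9 CPM in PBM T-like cells and 1437 CPM in control T-like cells. The 10 fibroblast markers summed to 1.03 CPM in PBM (2 of them at 0) and 97.7 CPM in control (1 of them at 0).

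Of the T-like clusters, 2 held over 100 cells of each library. In the one led by Foxp3, Tnfrsf4 and Klrg1 (118 PBM and 570 control cells), Mt1 stood at 123 CPM in PBM, against 463 CPM in control, 3.77-fold lower, and Mt2 at 17.8 CPM in PBM, against 115 CPM in control, 6.46-fold lower. An Mt1 UMI was found in 11 of the 118 PBM cells, against 330 of the 570 control cells, and 57 of the 124 PBM UMIs lay in 1 cell. At most 8 of these PBM cells lay in the control-dominated regulatory-like sub-cluster described above, which held 575 control cells. In that sub-cluster Mt1 was higher in the PBM cells than in the control cells. The mix of sub-clusters within this cluster can thus differ between libraries, and its part in these ratios was not tested. Free RNA could supply 36.6% of Mt1 in these control cells, and with it subtracted the log2 ratios were -1.21 (interval -1.49 to -0.93) for Mt1 and -1.84 for Mt2. These ratios rest on the median marker, since the highest would put free Mt1 at 1154 CPM, above the 463 CPM measured. In the cluster led by Izumo1r and Cd4 (691 PBM and 423 control cells), Mt1 stood at 3.53 CPM in PBM, against 148 CPM in control. By the median marker free RNA could supply 100% of that control level, though single markers would put free Mt1 between 0 and 638 CPM. The control level is therefore read as background, and no difference in Mt1 between these cells is read from it.

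**Figure D1:**
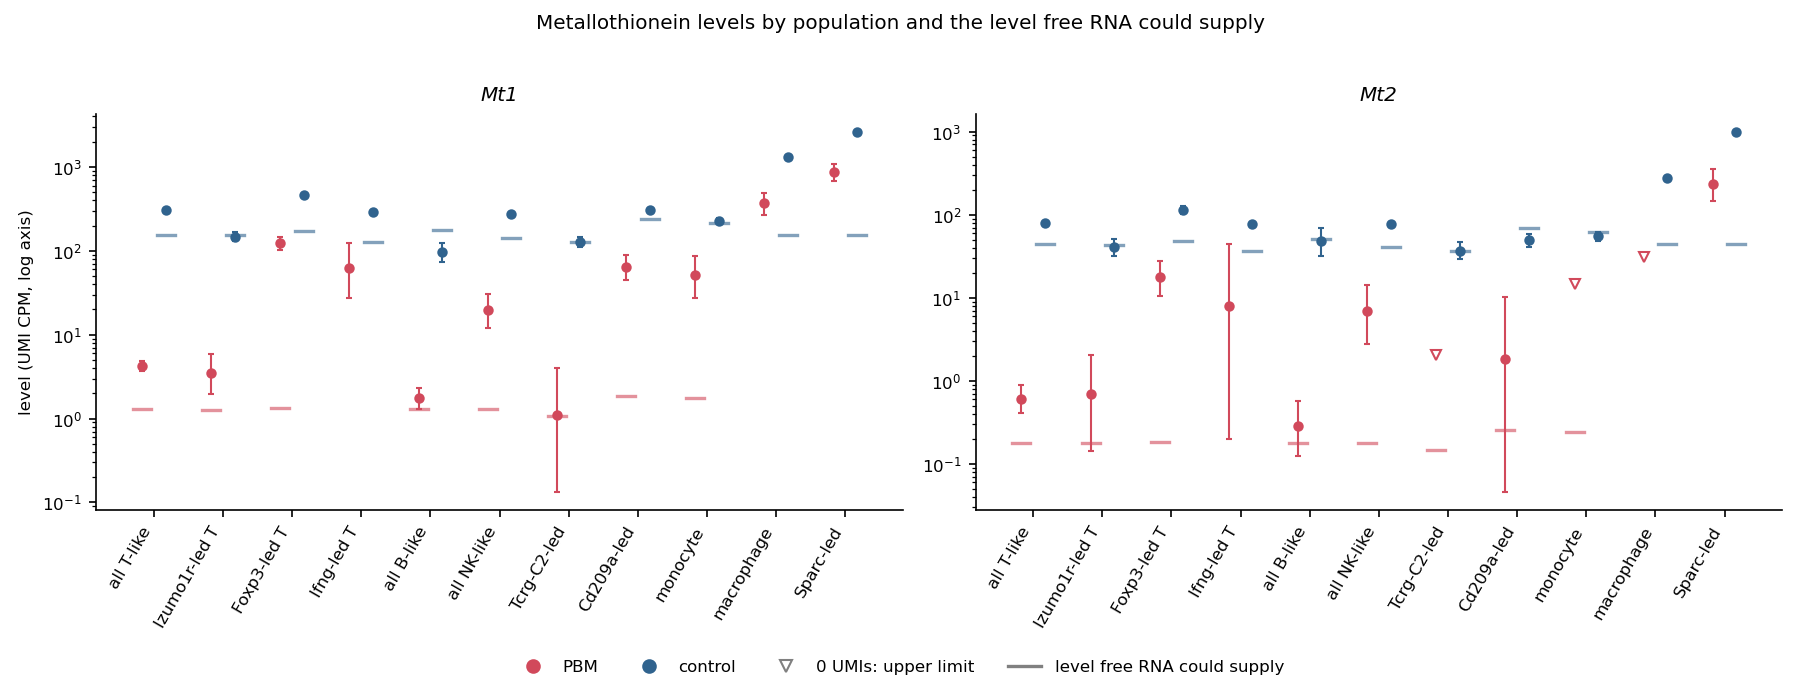
Levels of Mt1 (left) and Mt2 (right) by population, in UMI CPM on a log axis, for PBM (red, left of each pair) and control (blue, right); bars are 95% counting intervals, open triangles upper limits where no UMI was counted, and short horizontal lines the level free RNA could supply by the median marker. Control points of all T-like, Foxp3-led, Ifng-led, NK-like, macrophage-like and Sparc-led cells stand above their lines (Mt1 at 304, 463, 293, 275, 1316 and 2616 CPM), while those of B-like and Izumo1r-led cells (Mt1 at 97.3 and 148 CPM) lie below them (176 and 153 CPM).

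B-like cells gave the lowest Mt1 level of the 4 classes compared, in PBM and in control. It stood at 1.77 CPM in PBM (49 UMIs), against 97.3 CPM in control (61 UMIs in 207 cells), and Mt2 at 0.288 CPM in PBM, against 47.9 CPM in control. By the median marker free RNA could supply 100% of both in control B-like cells. Its estimate of 176 CPM for Mt1 exceeded the measured level there, though single markers would put it between 0 and 458 CPM. In PBM B-like cells free RNA could supply 69.4% of Mt1 and 59.3% of Mt2. The control levels are therefore read as background, and no difference in expression is read from the lower PBM levels. Macrophage markers summed to 192 CPM in PBM B-like cells and 1671 CPM in control B-like cells, with all 12 detected in each, and fibroblast markers to 0.974 CPM in PBM and 126 CPM in control, with 2 of 10 at 0 in each.

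In NK-like cells Mt1 stood at 19.9 CPM in PBM (20 UMIs in 203 cells), against 275 CPM in control (2653 UMIs in 1327 cells), and Mt2 at 6.95 CPM in PBM (7 UMIs), against 76.8 CPM in control (742 UMIs). The PBM value rests on 1 cell with 16 of the 20 Mt1 UMIs, the only PBM cell in an NK-like cluster led by Gzmg, Gzmd and other granzymes. The 136 control cells of that cluster stood at 691 CPM of Mt1 and 181 CPM of Mt2, of which free RNA could supply 17.7% and 19.4%. In the main NK-like cluster, led by Klra8 and Gzma (202 PBM and 1191 control cells), Mt1 stood at 3.99 CPM in PBM (4 UMIs), against 180 CPM in control (1414 UMIs), of which free RNA could supply 79.7%. With free RNA subtracted, the log2 ratio of Mt1 was -2.72 (interval -3.46 to -2.07) over all NK-like cells and -3.63 (interval -6.04 to -2.01) in that cluster. The marker with the highest share would put free Mt1 above the measured control level in both, at 854 and 746 CPM. Both subtracted ratios therefore rest on the median marker. Macrophage markers summed to 54.6 CPM in PBM NK-like cells (5 of 12 at 0) and 1877 CPM in control NK-like cells (none at 0), and fibroblast markers to 0.993 CPM in PBM (9 of 10 at 0) and 95.98 CPM in control (1 at 0).

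Macrophage-like and monocyte-like cells were compared as 1 class (110 PBM and 5094 control cells), since the PBM library held only 32 macrophage-like cells. Mt1 stood at 153 CPM in PBM (57 UMIs), against 1234 CPM in control (63679 UMIs), 8.07-fold lower, a log2 ratio of -3.01 (interval -3.41 to -2.64). No Mt2 UMI was counted among 372792 UMIs in PBM, against 263 CPM in control (13569 UMIs), at least 32.7-fold lower when the PBM sum is set to 3 counts. This class leaves out a sub-cluster led by B cell genes (53 PBM and 6 control cells), a choice made after its values were seen. With those cells kept, PBM stood at 343 CPM of Mt1, against 1234 CPM in control, and at 27.1 CPM of Mt2, against 263 CPM in control. B cell markers summed to 955 CPM in PBM cells of the class and 15.7 CPM in control cells, T cell markers to 899 CPM in PBM and 165 CPM in control, and fibroblast markers to 0 in PBM (all 10 at 0) and 103 CPM in control (none at 0). With free RNA subtracted, the log2 ratio of Mt1 was -2.70 (interval -3.10 to -2.32).

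The mix within that class also differed, since 32 of 110 PBM cells but 4212 of 5094 control cells were macrophage-like. In macrophage-like cells alone Mt1 stood at 369 CPM in PBM (44 UMIs), against 1316 CPM in control. In monocyte-like cells alone it stood at 51.3 CPM in PBM (13 UMIs), against 229 CPM in control, of which free RNA could supply 93.6%. The measured Mt1 level was lower in PBM than in control in both kinds of cell. Only the macrophage-like control level stood well above free RNA, which could supply 11.7% of it. In monocyte-like cells the median marker put free Mt1 at 1.74 CPM in PBM and 215 CPM in control. The monocyte-like control level is therefore read as background, and no difference in Mt1 between monocyte-like cells is read from it.

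Control myeloid cells were not uniform. Over the 12 myeloid sub-clusters with at least 50 control cells, Mt1 ran from 194 CPM in monocyte-like cells led by Ace and Treml4 to 2143 CPM in macrophage-like cells led by Gpnmb, and Mt2 was also highest in the Gpnmb-led cells at 635 CPM. Cells led by Ccl8, Cbr2 and Folr2 stood at 1815 CPM of Mt1, and the Cxcl3- and Cxcl2-led cells at 1675 CPM. Cells led by Ly6i, Cfb and Cxcl9, genes of the interferon-gamma response, were at 619 CPM, and those led by Spint1, Ifitm1 and Ccr2 at 637 CPM. Mt1 was also uneven from cell to cell: of 4212 control macrophage-like cells the 421 richest held 60.4% of the Mt1 UMIs, while the median cell had 4 and the highest 1052.

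**Figure D2:**
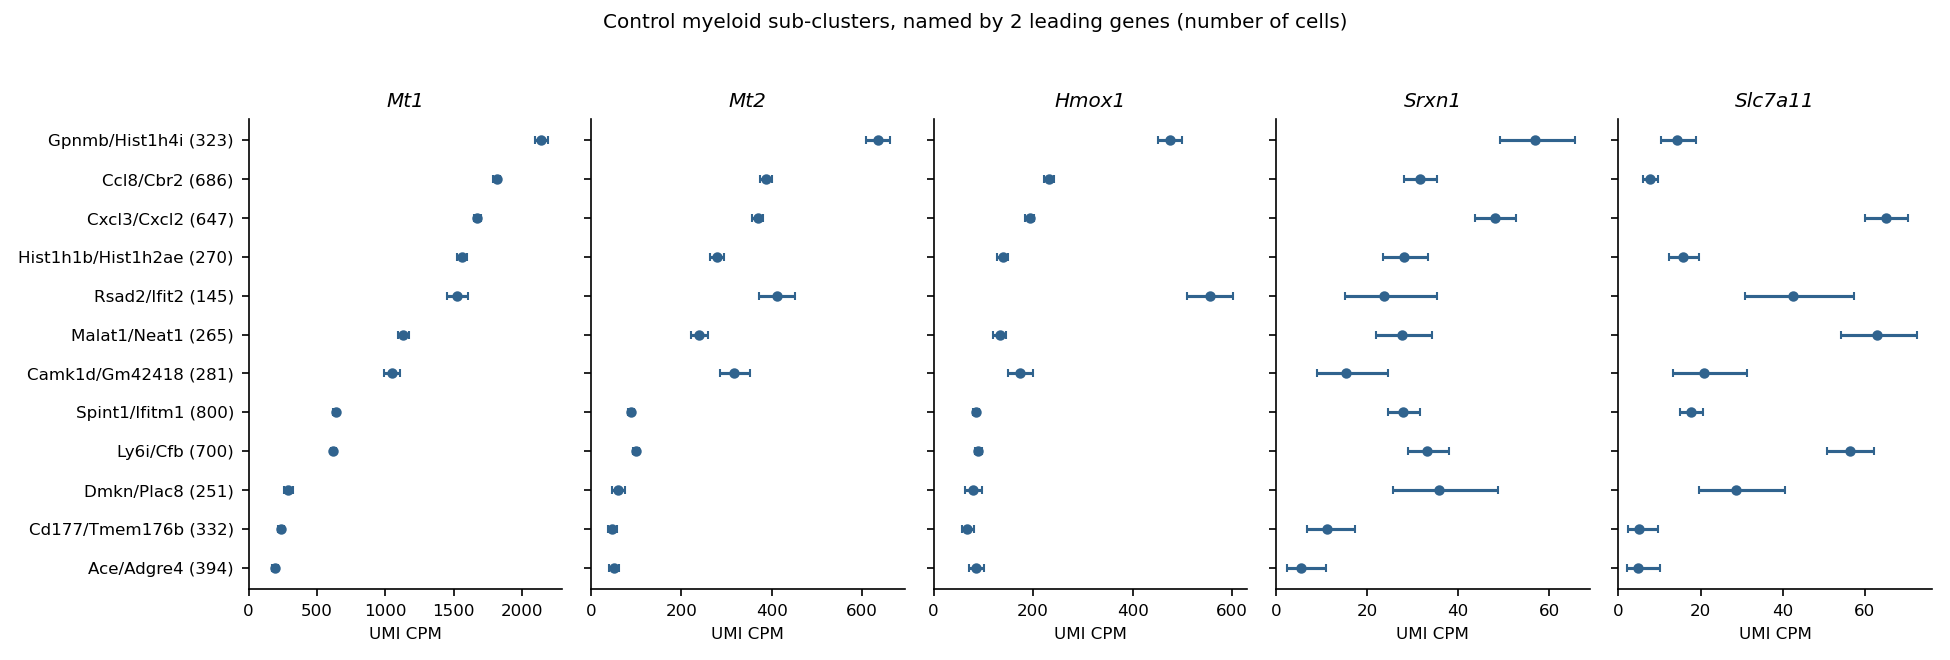
Levels of Mt1, Mt2, Hmox1, Srxn1 and Slc7a11 (UMI CPM, linear axes from 0) in the 12 myeloid sub-clusters of the control library with at least 50 cells, each named by 2 leading genes with its number of cells, ordered by Mt1; bars are 95% counting intervals. Mt1 and Mt2 peak in the Gpnmb-led cells (2143 and 635 CPM), Hmox1 in the Ifit-led and Gpnmb-led cells (555 and 475 CPM), and Slc7a11 in the Cxcl3-led cells (65.2 CPM).

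Sparc-led cells had the highest metallothionein level of any class. The 1212 control cells stood at 2616 CPM of Mt1 and 986 CPM of Mt2, and 92.1% of them held an Mt1 UMI. The 7 PBM cells, too few to compare, stood at 867 CPM of Mt1 (81 UMIs, 37 of them in 1 cell) and 235 CPM of Mt2 (22 UMIs). The balance between the paired genes also differed between classes: there were 2.65 Mt1 UMIs for each Mt2 UMI in control Sparc-led cells (interval 2.61 to 2.70) and 4.70 in control macrophage-like cells (interval 4.61 to 4.79). Control T-like cells, at 3.87 (interval 3.62 to 4.14), lay between them, near the 3.49 of the whole control library, as did control NK-like cells at 3.58 (interval 3.29 to 3.88). Among control myeloid sub-clusters the ratio ran from 3.30 in the Camk1d-led to 7.23 in the Spint1-led cells.

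In macrophage-like, Sparc-led, T-like and NK-like control cells the paired genes were also found together cell by cell. After thinning to 1000 UMIs, Mt2 was seen in 23.4% of control macrophage-like cells with an Mt1 UMI (interval 21.5 to 25.3) and in 7.16% of those without (interval 6.13 to 8.31). In control Sparc-led cells the shares were 58.5% with and 24.5% without. In control T-like cells they were 13.2% with (interval 10.0 to 16.8) and 5.43% without (interval 4.44 to 6.57). Control NK-like cells gave 12.7% with (interval 8.56 to 18.0) and 5.11% without (interval 3.89 to 6.57). In control monocyte-like cells Mt2 was seen in 6.45% with an Mt1 UMI (interval 3.14 to 11.5) and 5.36% without (interval 3.84 to 7.26), which overlap. Hmox1 was seen in 18.4% of control macrophage-like cells with an Mt1 UMI (interval 16.7 to 20.2) and 9.98% without (interval 8.77 to 11.3), while in control monocyte-like cells it was seen in 7.10% with and 6.74% without, whose intervals overlap.

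Hmox1 encodes haem oxygenase 1, which breaks haem into biliverdin, iron and carbon monoxide. It was higher in monocyte- and macrophage-like cells than in T-like, B-like and NK-like cells of both libraries. Dendritic-like cells had none in PBM (4 cells) and stood at 16.5 CPM in control (16 UMIs in 155 cells), near the level of control T-like cells. In the class of monocyte- and macrophage-like cells it stood at 75.1 CPM in PBM (28 UMIs), against 175 CPM in control (9010 UMIs), 2.33-fold lower, with a log2 ratio of -1.22 (interval -1.81 to -0.69). Macrophage-like cells alone stood at 134 CPM in PBM (16 UMIs), against 183 CPM in control, and monocyte-like cells at 47.3 CPM in PBM, against 68.1 CPM in control. With the B-gene-led cells kept, the PBM class stood at 162 CPM of Hmox1, against 175 CPM in control. The log2 ratio of Hmox1 was then -0.10 and no longer called.

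Among control myeloid sub-clusters Hmox1 did not always follow Mt1. It was highest in the sub-cluster led by Rsad2, Ifit2 and Ifit1 at 555 CPM, where 1 of the 145 cells held 153 of the 560 UMIs, and next in the Gpnmb-led cells at 475 CPM. The Ccl8-led cells stood at 232 CPM and the Spint1-led cells at 85.5 CPM. In lymphoid classes Hmox1 was scarce. In T-like cells it stood at 1.05 CPM in PBM, against 19.4 CPM in control, and free RNA could supply 61.7% of the control level. In B-like cells Hmox1 stood at 0.433 CPM in PBM, against 14.4 CPM in control, 95.5% of which free RNA could supply. In NK-like cells it stood at 1.99 CPM in PBM (2 UMIs), against 11.6 CPM in control, 96.9% of which free RNA could supply.

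One population ran the other way. In the unnamed cluster led by Cd209a and Clec10a, both C-type lectin genes (107 PBM and 317 control cells), Hmox1 stood at 62.3 CPM in PBM (34 UMIs), against 30.2 CPM in control (72 UMIs), a log2 ratio of 1.04 (interval 0.41 to 1.65). Of the 34 PBM UMIs, 21 came from 1 cell, and 25 of the 72 control UMIs also from 1 cell. Taken as a mean over cells of each cell's CPM, the log2 ratio of Hmox1 was -0.54, and after thinning -1.31, so its direction depends on how cells are weighted. In that cluster Hmox1 alone of the members was called higher, where 8.96% of all genes were, and 4 of 9 were called lower (Mt1, Mt2, Slc7a11 and Txnrd1), where 7.19% of all genes were. Of these 4 only Slc7a11 stayed called with free RNA subtracted, where the log2 ratio was 0.042 for Mt1, 0.43 for Mt2 and -1.07 for Txnrd1 (interval -2.41 to 0.027). Slc7a11 had no PBM UMI there, and 24 of its 38 control UMIs lay in 1 cell.

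In T-like and NK-like cells the glutathione synthesis genes stayed under 2-fold. Gclc and Gclm encode the catalytic and modifier subunits of glutamate-cysteine ligase, the first enzyme of glutathione synthesis. In T-like cells Gclc stood at 15.2 CPM in PBM, against 14.2 CPM in control (log2 ratio 0.09, interval -0.14 to 0.33), and Gclm at 35.8 CPM in PBM, against 34.4 CPM in control (0.06, interval -0.09 to 0.21). Both intervals lie within 2-fold either way. B-like cells gave 11.4 CPM of Gclc in PBM, against 14.4 CPM in control, and 22.1 CPM of Gclm in PBM, against 36.7 CPM in control (log2 ratio -0.73, interval -1.33 to -0.063). NK-like cells gave 11.9 CPM of Gclc in PBM, against 12.1 CPM in control, and 19.9 CPM of Gclm in PBM, against 24.5 CPM in control. The highest Gclc level of any T-like subset was that of the gamma-delta-like cells, 87.3 CPM in PBM (31 UMIs in 66 cells, interval 59.3 to 124), against 50.4 CPM in control (5 UMIs in 30 cells, interval 16.4 to 118).

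In the monocyte and macrophage class Gclm stood at 21.5 CPM in PBM (8 UMIs), against 45.2 CPM in control (2333 UMIs), a log2 ratio of -1.08 (interval -2.29 to -0.09). Slc7a11, the cystine importer that feeds glutathione synthesis, stood at 13.4 CPM in PBM (5 UMIs), against 31.8 CPM in control (1639 UMIs), a log2 ratio of -1.24 (interval -2.87 to -0.02). Neither call held in all alternatives: with the B-gene-led cells kept, the log2 ratio was -0.84 for Gclm and -0.44 for Slc7a11, and neither was called. Slc7a11 was highest in neutrophil-like cells, which stood at 314 CPM in PBM (7 UMIs in 12 cells), against 331 CPM in control (65 UMIs in 71 cells), and free RNA could supply 2.17% of that control level. Control macrophage-like cells stood at 33.8 CPM, with the Cxcl3-led (65.2 CPM) and Malat1-led (63.1 CPM) sub-clusters highest and the Ccl8-led cells at 7.69 CPM. In T-like cells Slc7a11 stood at 0.394 CPM in PBM, against 2.55 CPM in control, 95.5% of which free RNA could supply.

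Of the thioredoxin members, Srxn1 differed most. Srxn1 encodes sulfiredoxin, which repairs over-oxidised peroxiredoxins. In T-like cells it stood at 0.656 CPM in PBM (30 UMIs), against 20.0 CPM in control (274 UMIs), 30.4-fold lower, a log2 ratio of -4.93 (interval -5.52 to -4.38). By the median marker free RNA could supply 17.7% of the control Srxn1 level, and with it subtracted the log2 ratio was -4.89. That median was a share of 12.4% in control T-like cells, where single markers ran from 7.41% to 63.4%. The subtracted Srxn1 ratio therefore rests on the median marker. Within control T-like cells Srxn1 was highest in regulatory-like cells at 35.4 CPM and effector or exhausted CD8-like cells at 22.9 CPM, and lowest in conventional CD4-like cells at 6.83 CPM. In the Foxp3-led cluster shared by both libraries it stood at 10.9 CPM in PBM (11 UMIs), against 33.1 CPM in control (97 UMIs), a log2 ratio of -1.60 (interval -2.65 to -0.70) that was no longer called as a mean over cells (-0.71), after thinning (-1.12) or with barcodes ending in N1 only (-0.78). In the Izumo1r-led cluster Srxn1 stood at 1.88 CPM in PBM (8 UMIs), against 11.7 CPM in control (21 UMIs), a log2 ratio of -2.64. With finer clustering (resolution 2.0) T-like cells led by Izumo1r and Foxp3 (664 PBM and 19 control cells) formed their own cluster. Those led by Cxcr6 and Rora (92 PBM and 406 control cells) formed another. The mix of cells within the Izumo1r-led cluster can thus differ between libraries, and its part in this ratio was not tested. In NK-like cells (6.95 CPM in PBM, against 11.8 CPM in control) and in the monocyte and macrophage class (24.1 CPM in PBM, against 33.4 CPM in control) the intervals of the Srxn1 ratio included 0.

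Txnrd1, the cytosolic thioredoxin reductase, stood at 31.4 CPM in PBM T-like cells, against 46.2 CPM in control, and at 19.1 CPM in PBM B-like cells, against 31.9 CPM in control. NK-like cells went the other way for Txnrd1, at 75.5 CPM in PBM (76 UMIs), against 52.7 CPM in control, a log2 ratio of 0.52 (interval 0.15 to 0.87) that stays under 2-fold. The monocyte and macrophage class stood at 64.4 CPM of Txnrd1 in PBM, against 65.6 CPM in control. Prdx1, an abundant peroxiredoxin that removes hydrogen peroxide, had the most UMIs of the NRF2 genes. It stood at 293 CPM in PBM T-like cells, against 422 CPM in control, and at 590.1 CPM in the PBM monocyte and macrophage class, against 853 CPM in control, log2 ratios of -0.53 in each. In no population did the Prdx1 ratio reach 2-fold; in the Foxp3-led T-like cluster it was 0.11 (interval -0.03 to 0.25), at 607 CPM in PBM, against 562 CPM in control.

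Nqo1, a quinone reductase and a standard NRF2 target, was hardly seen in immune cells. T-like cells held 21 Nqo1 UMIs in PBM (0.459 CPM), against 14 UMIs in control (1.02 CPM), a log2 ratio of -1.15 whose interval of -2.20 to -0.06 almost reaches 0. The monocyte and macrophage class held none in PBM, against 36 UMIs in control (0.698 CPM). Control Sparc-led cells stood at 12.6 CPM and gave 79.0% of the control library's Nqo1 UMIs.

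**Figure D3:**
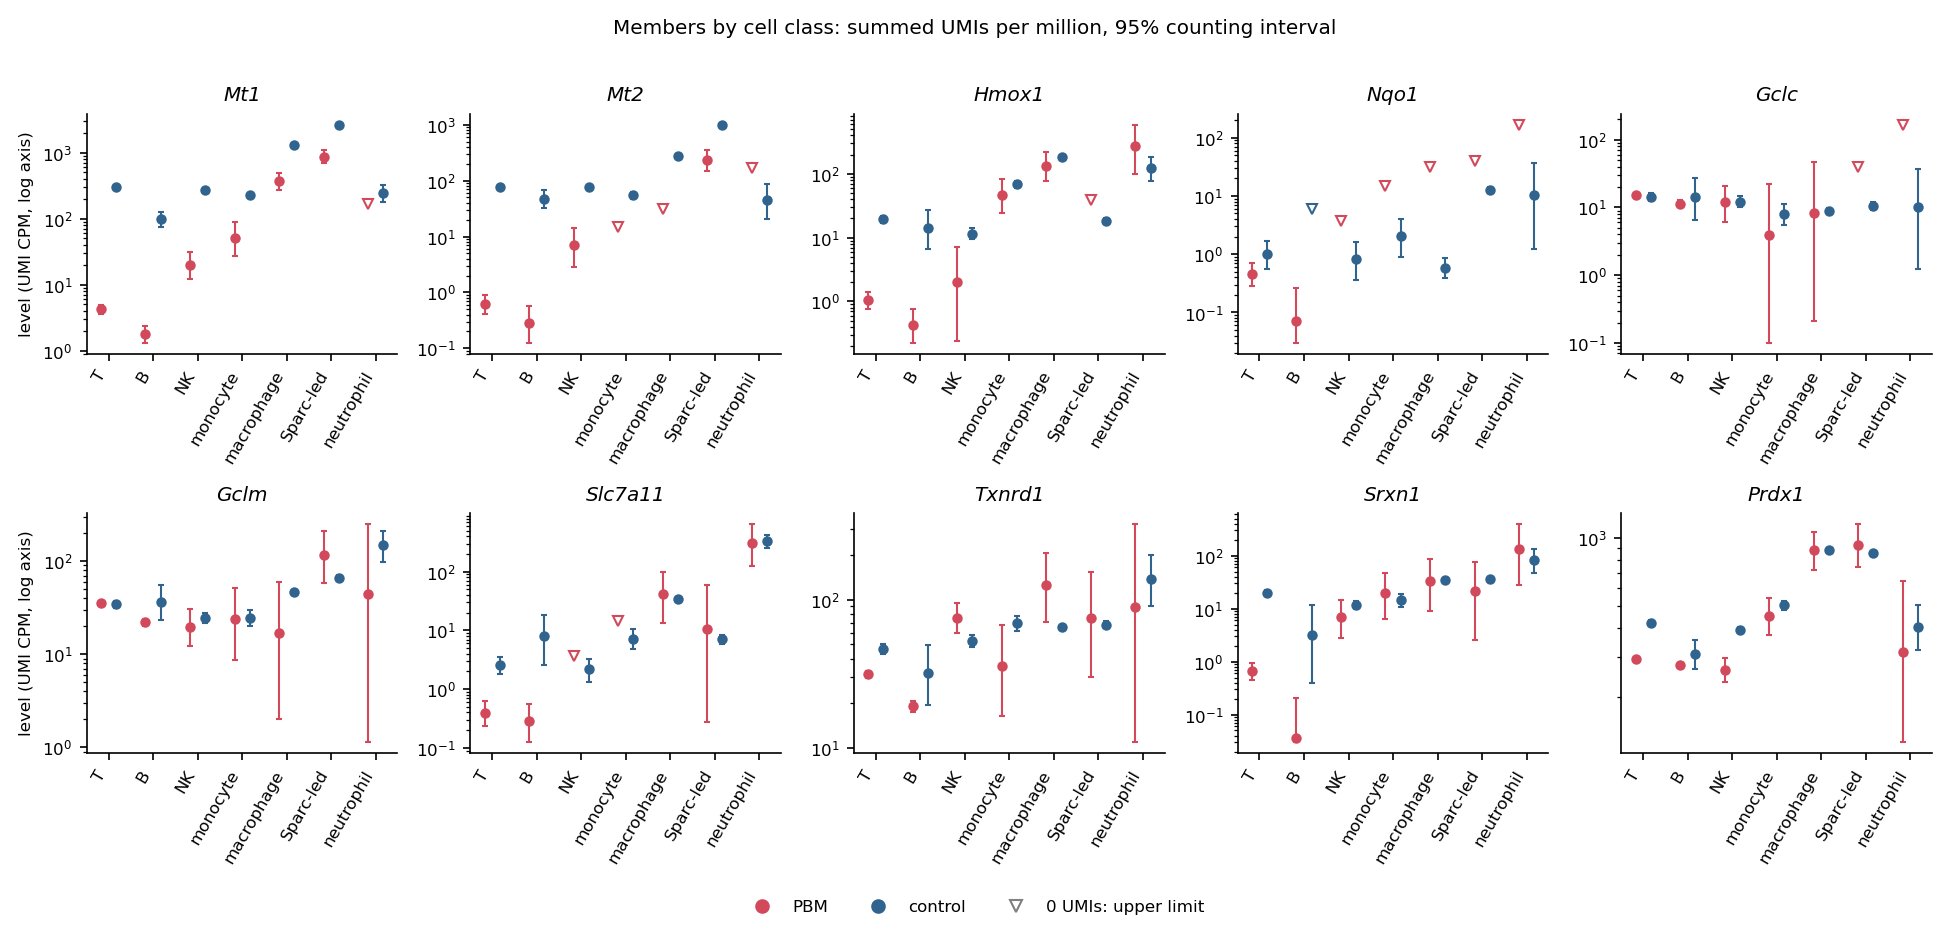
Level of each member (UMI CPM, log axes) in 7 classes, PBM in red and left of control in blue; bars are 95% counting intervals and open triangles upper limits where no UMI was counted. Mt1 and Mt2 of PBM lie below control in each class where both have UMIs, Gclc points of T-like cells nearly coincide (15.2 CPM in PBM, 14.2 CPM in control), and Slc7a11 peaks in neutrophil-like cells (314 CPM in PBM, 331 CPM in control).

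A gene was called different when the ratio was at least 2-fold, its interval left out 0 and both libraries together held at least 20 UMIs. In T-like cells 6 of 10 members were called lower in PBM (Mt1, Mt2, Hmox1, Nqo1, Slc7a11 and Srxn1) and none higher, where 18.9% of 14000 genes were lower. In B-like cells 3 of the 7 members with enough UMIs were lower (Mt1, Mt2 and Hmox1), where 6.61% of all genes were, and in NK-like cells the same 3 of 9, where 5.37% were. In the monocyte and macrophage class 5 of 10 were lower (Mt1, Mt2, Hmox1, Gclm and Slc7a11), where 4.29% were. The median log2 ratio of the members was -1.92 in T-like, -0.74 in B-like, -0.67 in NK-like and -1.08 in monocyte- and macrophage-like cells, against -0.20, -0.18, 0.09 and 0.03 over all genes. Across 10 overlapping populations, 4 classes and 6 clusters with at least 100 cells of each library, Mt1 and Mt2 were called lower in all 10, Hmox1 in 9, and Gclc and Prdx1 were called in none. How many of all genes were called lower in as many populations was not counted, so these counts are not read as particular to the members. With free RNA subtracted at its median marker, Mt1 and Mt2 each stayed called lower in 5 of the 10 (T-like, NK-like, monocyte- and macrophage-like, Foxp3- and Klrg1-led and Klra8-led cells) and Hmox1 in 3 of 9. Intervals after subtraction leave out the spread between markers. By the highest marker, free Mt1 and Mt2 would exceed the measured control levels in these 5 populations, except the monocyte- and macrophage-like cells (Mt1 494 CPM, against 1234 CPM measured). The direction of Mt1 turned in 2 of the 10 and that of Mt2 in 1, and no value was left for Mt1 in 3 and for Mt2 in 4. By cluster, members called lower were 4 of 8 tested in the Foxp3- and Klrg1-led cluster (Mt1, Mt2, Hmox1 and Srxn1; 8.16% of all genes), the same 4 of 8 in the Izumo1r-led cluster (7.57%), of which only Srxn1 stayed called with free RNA subtracted, and Mt1, Mt2 and Hmox1 in the Klra8-led NK cluster (3 of 8; 5.11%), the Iglc1-led B cluster (3 of 7; 5.74%) and an unnamed cluster led by Tcrg-C2 and Klra1 (3 of 7; 6.04%). With free RNA subtracted, 4 members stayed lower in T-like cells (Mt1, Mt2, Hmox1 and Srxn1), 2 in NK-like cells (Mt1 and Mt2), 3 in monocyte- and macrophage-like cells (Mt1, Mt2 and Gclm) and none in B-like cells, where too little of Mt1, Mt2 and Hmox1 was left to compare. The share of all genes called lower with free RNA subtracted was not computed, so the counts after subtraction have no background beside them. As given above, the mix of cells within the Izumo1r-led cluster can differ between libraries.

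**Figure D4:**
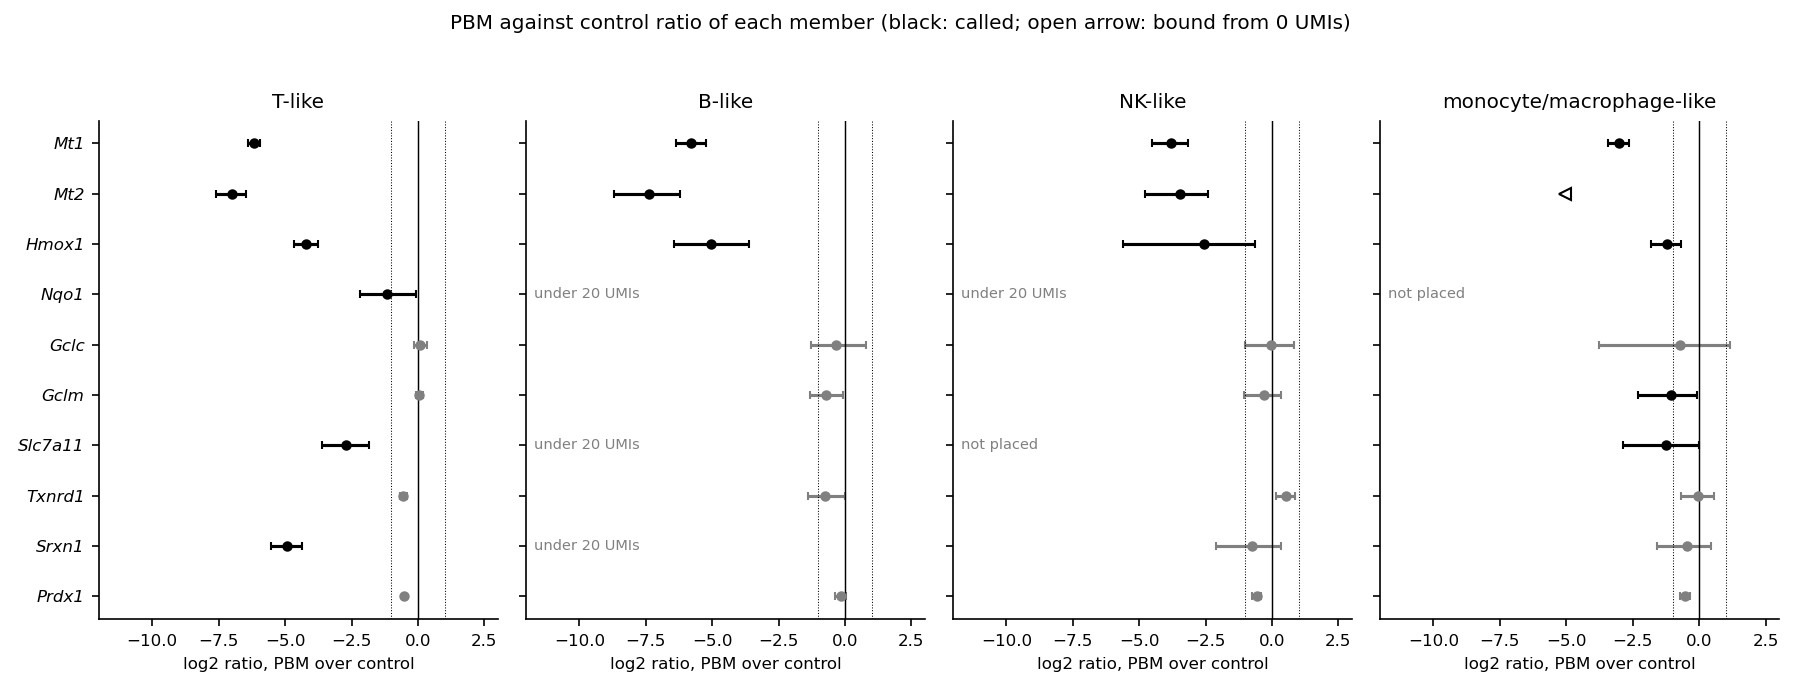
Log2 ratio of PBM over control for each member in 4 classes; bars are 95% counting intervals, black marks called members, grey those not called, the open arrow a bound from a sum of 0, and dotted lines 2-fold either way. Mt1 and Mt2 lie left of the 2-fold line in all 4 panels (Mt1 at -6.17, -5.78, -3.79 and -3.01), and Gclc and Prdx1 lie within the 2-fold lines in all 4, Gclc from -0.71 to 0.09 and Prdx1 from -0.58 to -0.16.

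Among 77 measured genes of the wider antioxidant and metal pathways, 6 of 73 tested were called higher and 24 lower in PBM T-like cells, where 6.67% and 18.9% of all genes were. By group, 2 were higher and 5 lower of 13 glutathione and cystine genes, 1 and 4 of 12 thioredoxin and peroxiredoxin genes, 2 and 3 of 5 quinone and aldehyde genes, and none higher and 3 lower both of 8 haem and iron genes and of 11 metal genes. Of the NRF2 regulators, Nfe2l2 itself stood at 33.1 CPM in PBM, against 17.4 CPM in control, a log2 ratio of 0.93 that stays under 2-fold, and Keap1 at 65.8 CPM in PBM, against 58.3 CPM in control. Bach2, a repressor of antioxidant elements known for holding T cells in a resting state, was called higher at 118 CPM in PBM, against 54.4 CPM in control. The small MAF gene Mafg was lower at 7.40 CPM in PBM, against 35.0 CPM in control, and Maff at 1.07 CPM in PBM, against 6.42 CPM in control. Thioredoxin itself, Txn1, was lower at 146 CPM in PBM, against 452 CPM in control (log2 ratio -1.63), and Prdx5 at 115 CPM in PBM, against 330.1 CPM in control (-1.53). Free RNA could supply 17.5% of the control level of Txn1, 39.9% of Prdx5 and 19.1% of Mafg.

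Among iron and metal genes of T-like cells, Fth1, the ferritin heavy chain, stood at 852 CPM in PBM, against 1711 CPM in control (log2 ratio -1.01), and Tfrc, the transferrin receptor of dividing cells, at 8.56 CPM in PBM, against 29.0 CPM in control. Mt3, another metallothionein gene on the same stretch of chromosome 8, had 4 UMIs in PBM T-like cells (0.0875 CPM), against 219 UMIs in control (16.0 CPM). The zinc exporter Slc30a1, a known target of MTF1, stood at 6.04 CPM in PBM, against 3.94 CPM in control. Its log2 ratio of 0.62 (interval 0.19 to 1.07) stays under 2-fold. It was named after its value was seen, as was Mtf1, and a part of MTF1 in the Mt1 result was not tested. Mtf1 stood at 15.4 CPM in PBM, against 21.3 CPM in control. Ggt5, a gamma-glutamyl transferase, was higher at 5.82 CPM in PBM, against 0.729 CPM in control.

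In the other classes fewer of these genes were called. B-like cells had 0 of 68 higher, where 1.3% of all genes were, and 8 lower, where 6.61% were, among them Mgst1 (2.63 CPM in PBM, against 28.7 CPM in control). NK-like cells had 3 of 69 higher, where 5.6% of all genes were, and 11 lower, where 5.37% were, with Ephx1, an epoxide hydrolase, at 21.9 CPM in PBM, against 2.17 CPM in control (log2 ratio 3.33), Slc30a1 at 7.95 CPM in PBM (8 UMIs), against 3.11 CPM in control, and Prdx6 at 73.5 CPM in PBM, against 201 CPM in control. The monocyte and macrophage class had 5 of 75 higher, where 6.06% of all genes were, and 4 lower, close to the 4.29% of all genes. Gsr, glutathione reductase, stood at 207 CPM in PBM, against 69.2 CPM in control (log2 ratio 1.58), Msrb1, a methionine sulfoxide reductase, at 486 CPM in PBM, against 183 CPM in control, and Prdx4 at 10.7 CPM in PBM (4 UMIs), against 53.4 CPM in control. Nfe2l2 in that class stood at 121 CPM in PBM, against 91.5 CPM in control (0.40, interval -0.06 to 0.82).

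Some genes that digestion and handling are known to induce were also called lower in PBM lymphocytes. Of 10 such genes (Fos, Jun and others), 5 were called lower in PBM T-like cells with a median log2 ratio of -1.17, 8 in B-like cells with -1.61 and 4 in NK-like cells with -0.63, where 18.9%, 6.61% and 5.37% of all genes were lower, while in the monocyte and macrophage class none was lower, 1 was higher and the median was 0.59. Their part in the member results was not tested. The heat shock gene Hspa1a stood at 0.197 CPM in PBM T-like cells, against 15.2 CPM in control. Of 6 glucocorticoid response genes, 2 were lower in T-like cells (median -0.52), 1 of 5 tested in B-like cells and none in NK-like or monocyte- and macrophage-like cells.

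The genes whose levels followed a member most closely were sought over 12 points, each a class of at least 50 cells in 1 library, by the correlation of log2(CPM + 10) over 4982 genes. The points share libraries and free RNA, so the values only describe these data. Lmna (r = 0.975), Mt2 (0.955), Pgk1 (0.943), Bnip3 (0.940) and Eno1b (0.936) were nearest to Mt1; Pgk1 and Bnip3 are known for induction by low oxygen. C3ar1 (0.980), Ccl9 (0.976), Atp6v1a (0.975), Ly6i (0.975) and Ccr1 (0.975) were nearest to Hmox1, and S100a8 (0.972), Sesn2 (0.955), S100a9 (0.953), Sfxn5 (0.953) and Rabgef1 (0.952) to Slc7a11. The correlation of Mt1 with Hmox1 was 0.606, and that with Prdx1 0.835.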

How the data were processed

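Raw UMI counts by gene symbol and barcode, as deposited, were the starting point. The authors used Cell Ranger 7.2.0 and mm10 per the submitters' processing notes, while the file headers name PISA 0.12; which of them made the matrices is not settled. Barcodes with at least 500 UMIs, 200 genes and at most 10% mitochondrial UMIs were kept (1 PBM and 11 control barcodes removed), and Scrublet in scanpy 1.11.5 removed 899 PBM (6.44%) and 128 control (1.14%) doublets. Both libraries were clustered together (2000 variable genes without the members and pathway genes, 30 components, Leiden resolution 1.0) and clusters named from marker lists; T-like and myeloid cells were clustered again. The fibroblast class is called Sparc-led.

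UMIs were summed per class and library and given as CPM of the class total, with exact Poisson intervals; ratios have exact conditional binomial intervals, and shares Clopper-Pearson intervals. UMI counts are not divided by gene length. Comparisons needed 100 or more cells per library, and descriptions 50 or more. Free RNA was estimated as the median, over markers of other classes, of the class CPM over the library CPM. The text names all members, the called pathway genes with up to 3 per group in each class, and the 5 genes most like Mt1, Hmox1 and Slc7a11; Nfe2l2, Keap1, Mtf1, Slc30a1 in T-like cells and Hspa1a were added after their values were seen. The members and lists were chosen with earlier results of these data known. The ratio calculation was tested on simulated data. Alternatives included edgeR 4.0.16 TMM factors.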

Additional observations from a re-analysis of the deposited data

Results flagged for a closer look

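Hmox1 in the unnamed cluster led by Cd209a and Clec10a was the one member ratio called in the opposite direction to the same gene elsewhere. Its log2 ratio of PBM over control was 1.04 there, against -1.22 in the monocyte and macrophage class, and the difference between the 2 populations was not tested. As given above, 21 of its 34 PBM UMIs came from 1 cell.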

How the results depend on the processing

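No paired analysis was possible because each group has 1 library. Of 886 member ratios under the alternatives, 804 kept their sign and call and 46 took another sign, 9 of these for ratios that were called. Alternatives that changed only the minimum of UMIs used the same counts, so the ratios they kept could not change sign or call. Ratios left without a value or under the UMI minimum are not among the 886. The share that stayed the same is therefore no measure of robustness. Mt1 and Mt2 stayed called lower in T-like, NK-like and monocyte- and macrophage-like cells under all alternatives run (Mt1 between -6.74 and -5.42, -4.15 and -2.72, and -3.59 and -1.85), and so did Srxn1 in T-like cells (-6.22 to -4.43). Subtracting free RNA at its highest marker was not among these alternatives.

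With free RNA subtracted, the member median of T-like cells was -0.48, the count of members lower was 0 in B-like and 3 in monocyte- and macrophage-like cells, and ratios reversed for Slc7a11 in T-like cells (1.40), Hmox1 in NK-like cells (2.25) and the Klra8-led NK cluster (0.45), Mt1 in the Izumo1r-led cluster (0.55), and Mt1 (0.042) and Mt2 (0.43) in the Cd209a-led cluster. With no minimum of UMIs the B-like median was -4.79 and 5 members were lower. The B-like count was 1 with at least 100 UMIs, 1 after thinning to 1000 UMIs and 1 with barcodes ending in N1 only. The monocyte and macrophage count was 3 after thinning, 3 with N1 barcodes only and 2 with the B-gene-led cells kept. In the Cd209a-led cluster Hmox1 reversed as a mean over cells (-0.54) and after thinning (-1.31), and Txnrd1 with N1 barcodes only (0.045). Fewer UMIs or cells enter under thinning and N1 barcodes; the cause of the other changes was not tested. The B-gene-led, N1 and Ifng-led alternatives were chosen after seeing the data. Shares of all genes called were not computed under the alternatives, so the counts of members given here have no background beside them.

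Depth limits the myeloid comparison: the PBM class held 372792 UMIs, so Gclc, Gclm, Slc7a11 and Srxn1 rest on 2 to 9 PBM UMIs there. Libraries scaled by TMM moved the median of all T-like genes to 0.11, against -0.20 before.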
